A study of Homo sapiens with 4 samples.

Results

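The comparison described here is the stable knockdown of ZEB2 by a short hairpin RNA (shRNA) in MDA-MB-231 cells against cells that carried the vector control. For each gene the log2 value of the control array was subtracted from that of the knockdown array, with 1 array on each side, so 2 of the 4 arrays of the series enter the difference. A gene was read from its brightest probe set with a single gene symbol, by the mean of the 4 arrays. It was kept when its highest value reached 4.77, the 40th percentile of all deposited values, which left 15082 of 19775 genes. The 4693 genes under that level on every array are counted apart and were not compared.

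MDA-MB-231 is an established human breast carcinoma line of the basal, mesenchymal-like kind. The 2 shRNA groups were stably transduced with the lentiviral vector pLVTH, either as the control vector or with the hairpin against ZEB2. The other 2 groups, used here as a second reference, received 20 nM siRNA, aimed either at ZEB2 or at luciferase, an insect gene that serves as a control, and were washed after 24 hours and kept for 48 hours in medium. All 4 groups are the same line, and each is 1 Affymetrix U133 Plus 2 array. Nothing in the labels says whether the transduced lines are clones or pools, or how many cultures each RNA came from. With 1 array per group no difference has a replicate check, no p-value is given, and precision is limited by the number of arrays. In RNA from a whole culture, fewer expressing cells and less RNA per cell cannot be told apart.

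The 2 shRNA arrays differed more from each other than the 2 siRNA arrays did. Across genes the standard deviation of the differences was 0.499 log2 units for the shRNA pair against 0.235 for the siRNA pair, and 674 and 26 genes were 2-fold apart. The vector control stood apart from the other arrays: it differed 2-fold from the luciferase control in 2377 genes, against 1706 for the stable knockdown. Delivery, culture and array cannot be told apart in that gap. Values on the siRNA arrays are therefore given for the genes described most fully, and counts are also given for genes that differed the same way by 2-fold from both controls. ZEB2, the targeted gene, read 6.12 in the vector control, 3.52 in the stable knockdown, 6.56 in the luciferase control and 3.51 in the siRNA knockdown, which bears out the labels. The line's own markers were present, with 12 of 12 at the filter level on both shRNA arrays, and of these PLAU alone differed 2-fold, by -1.08.

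ZEB2 is a zinc-finger and homeodomain transcription factor that binds E-boxes with the core CACCTG and mostly represses the genes it binds. It is known for holding carcinoma cells in a mesenchymal state, and it was also named as a partner of SMAD proteins, which carry signals of activins, TGF-beta and bone morphogenetic proteins (BMP) from receptors to genes. Activins and TGF-beta act mainly through SMAD2 and SMAD3, and BMPs through SMAD1, SMAD5 and SMAD9, with the ID genes among the best known BMP targets.

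In the stable knockdown 361 genes (2.39% of those measured) were at least 2-fold higher than in the vector control and 313 (2.08%) at least 2-fold lower, together 674 (4.47%). The 1.5-fold line was passed by 1138 genes upward (7.55%) and 1073 downward (7.11%). Against both controls at once, 42 genes (0.278%) were higher and 85 (0.564%) lower. The median difference over all genes was -0.02. A difference of 1 log2 unit is 2-fold, and the genes next to that line show how little separates the counted from the others: UNC13A at -1.000535 and MANSC1 at -1.000866 lay inside, and LPXN at -0.999982 and INTS6L at -0.999718 outside. On the higher side RCAN3 at 1.002962 and HYAL4 at 1.004930 lay inside, and EXOC2 at 0.997956 and C4BPB at 0.996199 outside.

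Both shRNA arrays reached the filter level for 545 of the 674 genes, 272 higher and 273 lower. The control alone was under it for 83 higher genes and the knockdown alone for 39 lower genes, and for 7 genes both were. RMA compresses differences at that dim end, so the sizes for these genes are less sure. The siRNA control lay nearer to the stable knockdown than to the vector control for 305 of the 361 higher genes and for 194 of the 313 lower genes. These genes were chosen by their difference from the vector control, which by itself favours such a count. The share over all genes was not counted, so no conclusion is drawn.

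**Figure D1:**
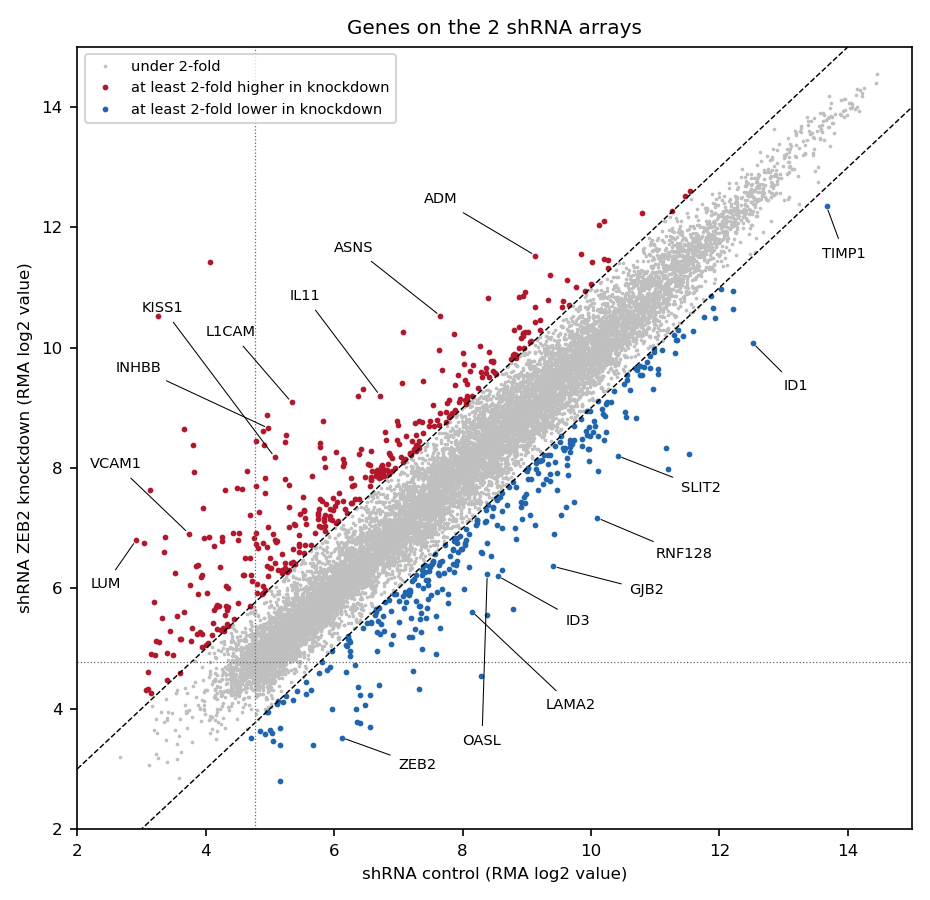
RMA log2 values of the 15082 measured genes in the vector control (horizontal axis) and the stable knockdown (vertical axis), 1 array each. Dashed lines mark 2-fold and dotted lines the filter level of 4.77. The 361 higher genes (red) reach further from the dashed lines than the 313 lower genes (blue). Of the higher genes, 83 lie left of the vertical dotted line with the control alone under the level, and 6 more with both arrays under it. Labelled genes are described in the text.

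The genes were sorted into 85 functional classes, which overlap and hold 4962 of the measured genes. Secreted proteins and their binding partners differed most often: of 507 measured, 30 (5.92%) were 2-fold higher and 26 (5.13%) lower. Surface proteins had 44 higher (4.09%) and 54 lower (5.02%) of 1076. The 44 include 7 near-identical pregnancy-specific glycoproteins, which are secreted but were counted here with the CEACAM genes. Classes of cell processes had 59 higher (4.21%) and 41 lower (2.92%) of 1402. Among 2086 regulators of transcription and signalling, 52 were higher (2.49%) and 46 lower (2.21%), close to the shares of all genes. The median differences were -0.04 for secreted, -0.04 for surface, 0.01 for process and 0.01 for regulator genes, beside -0.02 for all genes.

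**Figure D2:**
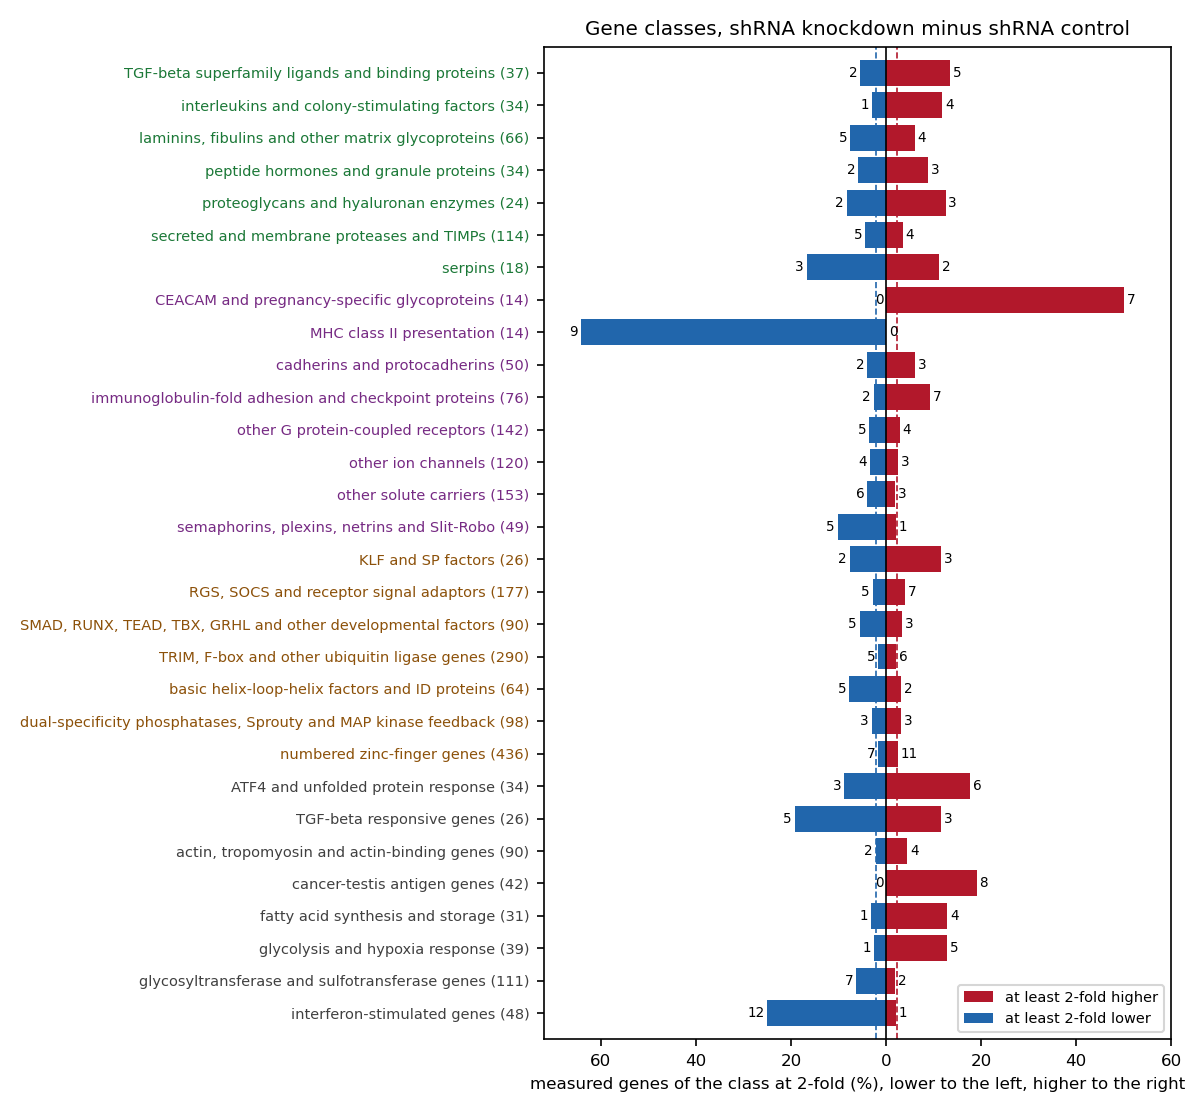
Share of measured genes at 2-fold in the classes with 5 or more such genes, apart from 1 class that is not reported here, lower to the left (blue) and higher to the right (red), with the number of genes at the bar ends and the number measured in parentheses. Label colours separate secreted (green), surface (purple), regulator (brown) and process (grey) classes, and dashed lines mark the shares of all genes, 2.39% higher and 2.08% lower. MHC class II presentation reaches furthest to the left with 9 of 14 genes and the CEACAM and pregnancy-specific glycoprotein class furthest to the right with 7 of 14. The latter class is coloured as surface, though pregnancy-specific glycoproteins are secreted.

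Ligands and modulators of the activin and BMP pathway were among the largest secreted differences. Of 37 measured ligands and binding proteins of the TGF-beta superfamily, 5 were 2-fold higher and 2 lower, beside shares of 2.39% and 2.08% over all genes. INHBB, the activin B subunit, read 4.98 in the vector control, 8.66 in the stable knockdown, 7.15 in the luciferase control and 6.94 in the siRNA knockdown, a difference of 3.69 or 12.9-fold. INHBA, the activin A subunit, read 4.48 in the vector control, 7.67 in the stable knockdown, 9.40 in the luciferase control and 8.85 in the siRNA knockdown, a difference of 3.19. INHBB in the stable knockdown was thus the highest of the 4 arrays, while for INHBA both siRNA arrays were higher still.

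FST encodes follistatin, which binds and neutralises activins, and read 8.28 and 10.03 on the vector control and stable knockdown arrays and 10.70 and 10.52 on the luciferase control and siRNA knockdown arrays. All 3 of its probe sets were at 2-fold, from 1.48 to 2.33. CHRDL1, a secreted BMP antagonist, differed by 2.87 from a control value of 3.98, under the level. GDF15, a distant member of the superfamily, differed by 1.69, but its other probe set at the level by 0.33. The 2 latent TGF-beta binding proteins at 2-fold were lower, LTBP1 at -1.48 and LTBP3 at -1.25. The other 2 probe sets of LTBP3 at the level gave -0.41 and -0.31. LTBP1 was also lower than in the luciferase control, at -1.55, and LTBP3 at -0.88.

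On the receptor side, ACVR2B, a type II activin receptor, read 6.60 and 7.95 on the shRNA arrays and 7.15 and 6.80 on the siRNA arrays, a difference of 1.36 that its 2 other probe sets, at 0.23 and 0.40, did not share. BMPR1B, a type I BMP receptor, read 7.22 in the vector control, 4.64 in the stable knockdown, 5.55 in the luciferase control and 5.79 in the siRNA knockdown, and a second probe set gave -2.02 beside -2.59. BAMBI, a decoy receptor without kinase activity, read 8.29 in the vector control, 6.61 in the stable knockdown, 10.79 in the luciferase control and 10.43 in the siRNA knockdown, so the stable knockdown was the lowest of the 4 arrays. The common receptors TGFBR1 and ACVR2A differed by -0.14 and -0.00.

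SMAD1 and SMAD9, of the BMP branch, and the target genes ID1 and ID3 were 2-fold lower in their brightest probe sets. SMAD1 differed by -1.25 and -0.94 in its 2 probe sets at the level. SMAD9 differed by -1.20 in one probe set and by 0.27 in the other. SMAD2, SMAD4 and SMAD5 lay between -0.17 and -0.01. ID1, which keeps helix-loop-helix factors from binding DNA, read 12.52 in the vector control, 10.08 in the stable knockdown, 7.63 in the luciferase control and 7.71 in the siRNA knockdown, and ID3 read 8.55 in the vector control, 6.21 in the stable knockdown, 5.21 in the luciferase control and 5.37 in the siRNA knockdown. For both ID genes the vector control was the highest array, and the stable knockdown lay between it and the siRNA arrays. ID2 differed by -0.89 and ID4 by 0.15. In a wider list of 26 genes known to respond to TGF-beta, 3 were 2-fold higher and 5 lower, with a median of -0.12. Over all genes the shares were 2.39% higher and 2.08% lower.

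**Figure D3:**
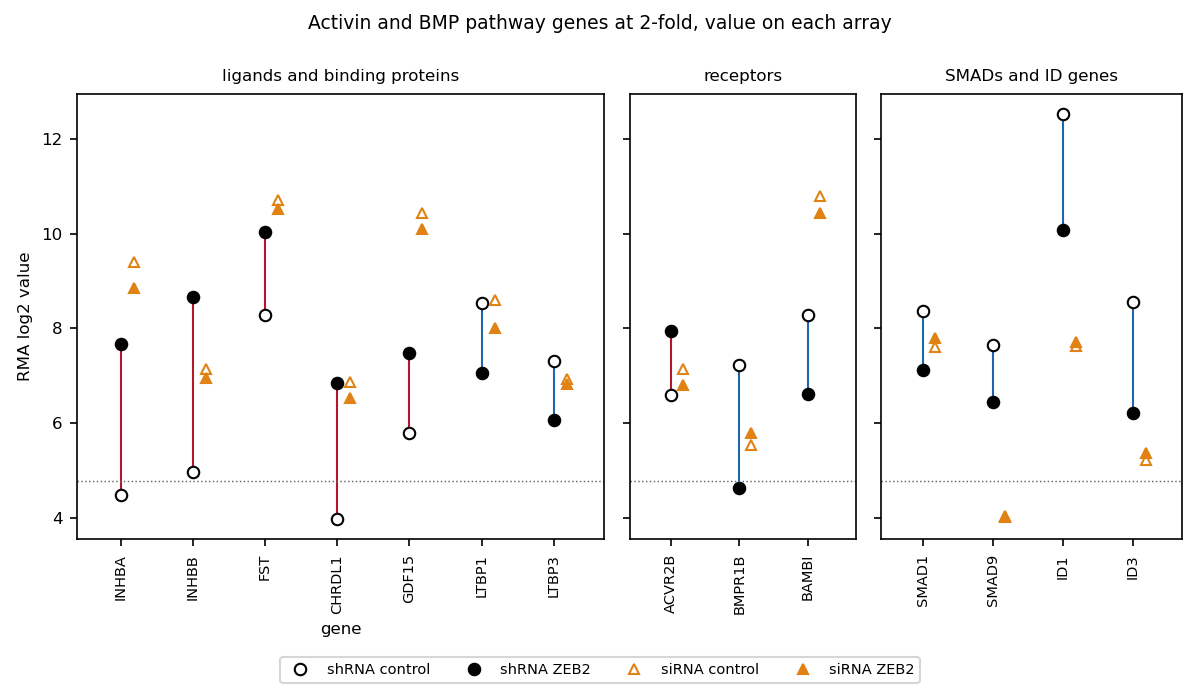
RMA log2 values on each array for the activin and BMP pathway genes at 2-fold, by role. Circles are the shRNA arrays (open, vector control; filled, ZEB2 knockdown) joined by a red line where the knockdown is higher and a blue line where it is lower, triangles are the siRNA arrays (open, luciferase control; filled, ZEB2 knockdown), and the dotted line is the filter level of 4.77. INHBB and ACVR2B are highest in the stable knockdown, BAMBI, BMPR1B, LTBP1, LTBP3 and SMAD1 lowest in it, and the ID genes highest in the vector control.

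Interleukins were higher in 4 of 34 cases (11.8%) and lower in 1 (2.94%), beside 2.39% and 2.08% of all genes. IL11, a cytokine of the gp130 family, read 6.72 in the vector control, 9.20 in the stable knockdown, 8.85 in the luciferase control and 8.14 in the siRNA knockdown, with a second probe set at 1.06. IL32, IL24 and IL6 differed by 1.84, 1.78 and 1.52, each from its single probe set. IL6, which signals through the same receptor chain as IL11, read 5.98 and 7.50 on the shRNA arrays and 11.51 and 12.14 on the siRNA arrays, so its difference within the shRNA pair is small beside the gap between the pairs. IL7, a lymphocyte growth factor, was lower at -2.29, with the knockdown under the level at 3.39. Its receptor chain IL7R was higher at 1.71 and 1.502 in its 2 probe sets. Chemokines had 0 of 24 at 2-fold and 6 at 1.5-fold lower, beside 7.11% of all genes. Of these 6, CXCL8 read 8.90 in the vector control, 8.04 in the stable knockdown, 11.61 in the luciferase control and 12.04 in the siRNA knockdown.

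Peptide hormones and granule proteins were 2-fold higher in 3 of 34 cases (8.82%) and lower in 2 (5.88%), beside 2.39% and 2.08% of all genes. KISS1, outside that list, is the kisspeptin precursor first known as a metastasis suppressor, and read 5.07 and 8.18 on the vector control and stable knockdown arrays and 7.75 and 7.65 on the luciferase control and siRNA knockdown arrays. EDN1, the precursor of the vasoconstrictor endothelin 1, read 6.37 and 9.20 on the vector control and stable knockdown arrays and 9.85 and 10.29 on the luciferase control and siRNA knockdown arrays. ADM, the precursor of the vasodilator adrenomedullin, read 9.13 and 11.53 on the vector control and stable knockdown arrays and 10.61 and 10.76 on the luciferase control and siRNA knockdown arrays. The stable knockdown lay above both siRNA arrays for KISS1 and ADM and below them for EDN1. The 3 probe sets of EDN1 gave 2.83, 1.72 and 0.57. GAL, the galanin precursor, was lower at -1.28, and SCG5, a chaperone of prohormone convertase 2 in secretory granules, at -1.85. SCG5 was the one of these with a like difference in the siRNA pair, -2.19.

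Growth factors and Wnt ligands were mixed. BDNF, a neurotrophin, was higher at 1.43 and 0.96 in 2 probe sets, and WNT5A, a ligand of noncanonical Wnt signalling, at 1.89 from a control value of 3.23. NDP, the Wnt receptor ligand norrin, was lower at -1.92, HHIP, a decoy for hedgehog ligands, at -1.32 with all 4 probe sets lower, and ANGPTL4, a secreted inhibitor of lipoprotein lipase, at -1.62. FGF1 was lower at -1.09. NDP was lower in the siRNA pair too, at -1.11, and HHIP at -0.92.

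Protease inhibitors and proteases differed in both directions. SERPINA1, the inhibitor of neutrophil elastase, read 5.78 in the vector control, 8.42 in the stable knockdown, 8.59 in the luciferase control and 8.99 in the siRNA knockdown, and its other probe set at the level differed by 3.52. SERPINB7 was higher at 1.94, while SERPINB9, which blocks granzyme B, was lower at -1.57 and SERPINE2, an inhibitor of thrombin and plasminogen activators, at -1.21. The other probe sets of SERPINB9 at the level gave -0.17 and -0.44. The plasminogen activator PLAU differed by -1.08 and its receptor PLAUR by -1.11, with every probe set at the level lower by 1.5-fold or more. TIMP1, an inhibitor of matrix metalloproteases, read 13.67 in the vector control, 12.35 in the stable knockdown, 12.36 in the luciferase control and 12.13 in the siRNA knockdown, so the vector control alone was high. ADAMTS1, a matrix protease, was higher at 2.80 and 2.29, from a control value of 4.05, with the siRNA arrays at 7.91 and 7.68. PRSS3 (mesotrypsin) was lower at -2.16 and -2.35, and lower than the luciferase control at -1.95. Trypsin genes are near-identical, so PRSS2 at -1.15 may read the same transcripts.

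Matrix genes differed in both directions. LUM, the collagen-binding proteoglycan lumican, read 2.92 in the vector control, 6.80 in the stable knockdown, 8.99 in the luciferase control and 8.71 in the siRNA knockdown, and SPOCK1, a secreted proteoglycan, 3.89 in the vector control, 6.39 in the stable knockdown, 9.11 in the luciferase control and 8.82 in the siRNA knockdown. For both, the vector control was under the level and the stable knockdown was still below the siRNA arrays. Of 6 measured fibroblast markers, LUM alone was at 2-fold, and the lowest was at -0.37; their part in the result was not tested. LOX, which crosslinks collagen, was higher at 2.36, 2.48 and 2.15 in its 3 probe sets, and HAS2, a hyaluronan synthase, at 2.17 and 2.07 (8.02 in the stable knockdown, 7.39 and 6.68 on the siRNA arrays), while HAS3 was lower at -1.12. The other probe set of HAS3 differed by -0.16. LOXL1, of the LOX family, was higher at 1.23 against the vector control and 1.97 against the luciferase control. COL12A1, a fibril-associated collagen, differed by 1.496 and the collagen VI chain COL6A3 by -2.02.

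The laminin alpha chains LAMA2 and LAMA4, of basement membranes, were 2-fold lower. LAMA2 read 8.15 and 5.62 on the vector control and stable knockdown arrays and 5.88 and 5.85 on the luciferase control and siRNA knockdown arrays, and its 3 probe sets at the level gave -2.25 to -2.62. LAMA4 differed by -1.86, and its 2 others by -2.09 and -3.13. The beta and gamma chains LAMB1 and LAMC1 differed by -0.70 and -0.39. For both, the vector control was the highest array in each probe set at the level. One of LAMA4's, the one at -3.13, read 5.31 in the stable knockdown and 3.68 and 3.55 on the siRNA arrays.

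Among surface genes, immunoglobulin-fold adhesion proteins were 2-fold higher in 7 of 76 cases (9.21%) and lower in 2 (2.63%), against 2.39% and 2.08% of all genes. VCAM1, the ligand of the leukocyte integrin VLA-4, read 3.74 in the vector control, 6.91 in the stable knockdown, 4.16 in the luciferase control and 3.83 in the siRNA knockdown, the one array above the filter level being the stable knockdown. L1CAM, a neural adhesion molecule found on invasive carcinoma cells, read 5.34 in the vector control, 9.09 in the stable knockdown, 10.49 in the luciferase control and 10.19 in the siRNA knockdown. NEGR1, another neural adhesion protein, differed by 2.29, with its 2 other probe sets at 3.09 and 3.58, and by 1.58 from the luciferase control. EPCAM, an epithelial adhesion molecule, differed by 1.39 and MCAM by 1.32, the latter with a second probe set at 0.02. The endothelial junction protein ESAM was lower at -1.41 and CLMP at -1.57. Of 7 measured endothelial markers, ESAM among them, 4 were lower at 1.5-fold and KDR was higher, at 0.91. The shares of all genes were 7.11% lower and 7.55% higher. The 7 lay between -1.41 and 0.91 with a median of -0.62, and their part in these values was not tested.

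Cadherins were higher in 3 of 50 cases (6%) and lower in 2 (4%), beside 2.39% and 2.08% of all genes. FAT3, a giant cadherin, read 3.04 and 6.76 on the vector control and stable knockdown arrays and 6.76 and 6.95 on the luciferase control and siRNA knockdown arrays. PCDHB14 and PCDHB12, of the clustered protocadherins whose sequences are alike, differed by 1.37 and 1.03 from the vector control and by 1.17 and 1.05 from the luciferase control. PCDH7 was lower in all 3 probe sets at the level, from -0.78 to -2.54. The leukocyte integrin chain ITGB2 read 4.51 and 6.92 on the vector control and stable knockdown arrays and 7.51 and 7.42 on the luciferase control and siRNA knockdown arrays, but its main partner ITGAL differed by only 0.12. ITGA2, the alpha chain of the collagen receptor, was lower at -1.48 and -1.62 in 2 probe sets, and at -1.57 against the luciferase control. ITGA10, another collagen-binding chain, was lower at -1.49.

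Guidance molecules were higher in 1 of 49 cases and lower in 5, against 2.39% and 2.08% of all genes. SLIT2, a ligand that repels axons and migrating cells, read 10.42 and 8.20 on the vector control and stable knockdown arrays and 7.84 and 7.81 on the luciferase control and siRNA knockdown arrays, and its 3 probe sets gave -1.85 to -2.22. NRP1 and NRP2, which bind semaphorins and VEGF, differed by -1.25 and -1.05, and PLXNA2, a semaphorin receptor, by -1.16 and -1.60. SLITRK5 was lower at -2.02, with the knockdown at 4.36, under the level. NRP1 was spread over its probe sets, from -1.25 to -0.14. PLXDC2 was the higher one, at 1.12 from a control value of 3.14, but its other probe sets at the level gave 0.12 to 0.39. The ephrin ligands EFNA1 and EFNA5 were higher at 1.71 and 1.35. Among Notch ligands, JAG1 was lower at -1.25 and DNER at -1.61, the latter also at -1.97 against the luciferase control. HES1, a target of Notch, differed by -1.44 and -1.28 in 2 probe sets.

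G protein-coupled receptors outside the chemokine family were at 2-fold in 9 of 142 cases, 4 higher (2.82%) and 5 lower (3.52%), beside 2.39% and 2.08% of all genes. GPR158 read 6.41 in the vector control, 3.76 in the stable knockdown, 5.80 in the luciferase control and 5.08 in the siRNA knockdown, lower than both controls. S1PR3, a receptor of sphingosine 1-phosphate, read 6.67 in the vector control, 4.96 in the stable knockdown, 9.10 in the luciferase control and 9.01 in the siRNA knockdown, and GPR17 differed by -2.33. HTR7, a serotonin receptor outside that class, differed by -2.07 and by -2.28 from the luciferase control. CALCR, the calcitonin receptor, was higher at 1.69, though its other probe set differed by 0.36. F2R, the thrombin receptor, was higher at 1.10 in one probe set and differed by -0.04 in the other. Among cytokine receptors, CXCR4 read 3.26 in the vector control, 10.53 in the stable knockdown, 10.42 in the luciferase control and 10.40 in the siRNA knockdown. The vector control alone was low, and under the level, so the size of the difference of 7.27 is unsure; the other 2 probe sets gave 5.03 and 5.32. The scavenging CXCL12 receptor ACKR3 differed by 1.499 with both shRNA arrays under the level. The ligand CXCL12 was under the level on all 4 arrays.

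Among TNF family genes, TNFRSF11A, the receptor RANK, was lower at -2.07 and -1.45. The death ligand gene TNFSF10 was higher in all 3 probe sets, from 1.37 to 1.93. Of receptor tyrosine kinases, ERBB3 read 4.89 and 6.76 on the shRNA arrays and 7.23 and 7.49 on the siRNA arrays, with its other probe sets from -0.09 to 0.89. Of 9 measured luminal breast markers ERBB3 alone was at 2-fold, and the lowest was at -0.68. FGFR3 was lower at -1.24. CD24, a glycosylated surface protein, was higher in all 6 probe sets, from 4.65 to 1.18, and its values on the siRNA arrays were higher again at 11.24 and 11.80.

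Gap junction genes were 2-fold lower in 3 of 11 cases (27.3%) and higher in 0, beside 2.08% and 2.39% of all genes. The gap junction proteins GJB2, GJA1 and GJA3 differed by -3.04, -1.74 and -1.51, and the 11 measured connexins and pannexins had a median of -0.49. The other probe set of GJA3 gave -0.41. GJA1 (connexin 43) read 10.21 in the vector control, 8.47 in the stable knockdown, 9.54 in the luciferase control and 9.44 in the siRNA knockdown. Against the luciferase control GJA1 alone of the 3 was 2-fold lower, at -1.07, and the median of the class was 0.15. Tight junction genes had 3 of 33 lower (9.09%) and 1 higher (3.03%), beside 2.08% and 2.39% of all genes. The higher one was PATJ at 1.27, but its other probe sets at the level gave -0.05 to 0.28. Among the lower were CLDN7 at -1.25 and CLDN12 at -1.32, both also lower than the luciferase control at -1.24 and -2.35. TSPAN8, a tetraspanin, was lower at -2.30 and at -1.28 against the luciferase control. Desmosome and cornified envelope genes had 3 of 39 higher (7.69%) and 1 lower (2.56%), beside 2.39% and 2.08% of all genes. DSP, the desmosomal plaque protein, was higher at 1.20.

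Of the 85 classes, MHC class II presentation had the largest share at 2-fold. Of 14 measured genes, 9 were 2-fold lower (64.3%) and 0 higher, beside 2.08% and 2.39% of all genes. The class median was -1.50. Class II molecules present peptides to helper T cells and are found mainly on immune cells, and on other cells after interferon gamma. HLA-DPA1 read 11.16 and 8.34 on the vector control and stable knockdown arrays and 8.97 and 8.76 on the luciferase control and siRNA knockdown arrays, and its 3 probe sets lay between -2.71 and -3.07. CD74, the invariant chain, differed by -1.35, and the peptide exchange proteins HLA-DMA and HLA-DMB by -1.57 and -1.43. CIITA, the master activator of the class, differed by -0.52, and its other 2 probe sets by -0.48 and -0.28. For HLA-DPA1 and CD74 the vector control was the highest array, and against the luciferase control the median of the class was -0.13. HLA-DRB genes are near-identical, so DRB1, DRB4 and DRB6 are uncertain as separate readings.

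Lymphoid and myeloid cells carry class II molecules. Of 11 lymphoid markers on the array, 6 reached the level, and their differences lay between -0.14 and 0.08. Of 9 myeloid markers 6 reached it, between -1.19 and -0.05, LYZ being the lowest. The pan-leukocyte marker PTPRC was under the level on all 4 arrays. Class I presentation genes had 2 of 23 lower (8.7%) and 0 higher, beside 2.08% and 2.39% of all genes. They were NLRC5, an activator of class I genes, at -1.03 and ULBP2, a stress ligand of natural killer cells, at -1.39. HLA-B, HLA-C and B2M differed by -0.54, -0.37 and -0.37.

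Pregnancy-specific glycoproteins, secreted proteins of the placenta, were higher in 7 cases of the 14 measured in their class with the CEACAM genes. That class had 50% higher and 0 lower, beside 2.39% and 2.08% of all genes, and a median of 1.10. PSG4 read 4.29 in the vector control, 7.64 in the stable knockdown, 9.25 in the luciferase control and 8.83 in the siRNA knockdown and PSG9 4.78 in the vector control, 7.70 in the stable knockdown, 10.06 in the luciferase control and 9.64 in the siRNA knockdown. The siRNA arrays were higher still, and against the luciferase control the class had a median of -1.09. CEACAM1 differed by -0.06. The PSG genes are near-identical copies and probe sets can read more than 1, so the number of separate genes is uncertain.

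Transporters and channels gave few members. SLC7A5, the large neutral amino acid transporter, was higher at 1.85, with 11.21 in the stable knockdown and 10.84 and 10.67 on the siRNA arrays, and SLC1A1, a glutamate transporter, lower at -1.69. SLC4A4, a sodium bicarbonate cotransporter, read 5.37 in the vector control, 7.07 in the stable knockdown, 5.39 in the luciferase control and 4.76 in the siRNA knockdown, highest in the stable knockdown. The glucose transporter family members SLC2A10 and SLC2A12 were higher at 1.75 and 1.15. LRRC8B and LRRC8C, subunits of volume-regulated anion channels, were lower at -1.49 and -1.15. SCN9A, a voltage-gated sodium channel, was higher at 1.52. Potassium channels had 0 of 51 and ABC transporters 0 of 32 at 2-fold in either direction, beside 4.47% of all genes.

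Regulators of transcription held no class with most members at 2-fold. KLF13, a zinc-finger factor, read 4.56 in the vector control, 7.66 in the stable knockdown, 7.62 in the luciferase control and 7.37 in the siRNA knockdown, but its other 2 probe sets at the level gave 1.78 and 0.00. Among bZIP factors, 4 of 43 were higher (9.3%) and 0 lower, beside 2.39% and 2.08% of all genes. JDP2, which pairs with JUN, read 4.69 and 7.21 on the vector control and stable knockdown arrays and 8.71 and 8.31 on the luciferase control and siRNA knockdown arrays, CREB5 differed by 1.81, ATF3 by 1.41 and BACH1, a repressor of haem and antioxidant genes, by 1.14. The second probe set of JDP2 gave 0.64, while neither of the others of BACH1, at -0.30 and 0.27, did so at 1.5-fold.

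Of the factors known for epithelial-mesenchymal transition, SNAI2 (Slug) read 8.88 in the vector control, 10.85 in the stable knockdown, 11.68 in the luciferase control and 11.42 in the siRNA knockdown, 2-fold higher than the vector control and nearer to the siRNA arrays. ZEB1, the paralogue of ZEB2, differed by -0.28 in its brightest probe set, with others from -1.04 to -0.18. EPAS1 (HIF-2 alpha) was higher at 1.56 and 1.88, VGLL3, a cofactor of TEAD factors, at 1.89 and 1.11, and WT1 at 1.52 and 1.66. WT1 was also higher than the luciferase control, by 1.23. AFF3, a nuclear protein of the AF4 family, differed by 3.26 from a control value of 3.35, with all 4 others at the level between 0.67 and 1.99.

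On the lower side stood LEF1, a nuclear effector of Wnt signalling, which read 9.05 in the vector control, 7.22 in the stable knockdown, 5.76 in the luciferase control and 5.23 in the siRNA knockdown. Its other probe sets gave -0.79 and 0.48, so its difference depends on the probe set. KLF2 was lower at -1.65, against a second probe set at -0.28, and the immediate early gene EGR3 at -1.21. EHF, an epithelial ETS factor, was lower in all 6 probe sets, from -1.40 to -0.85. AHRR, a repressor of the aryl hydrocarbon receptor, was lower at -1.59, and PRMT6, an arginine methyltransferase acting on histone H3, at -1.24. ZNF503 was lower than both controls, at -1.64 and -2.22, but its other 2 probe sets were flat at -0.10 and -0.05.

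Signalling proteins included several single large differences. PRKCZ, the atypical protein kinase C of the cell polarity complex, read 5.24 in the vector control, 8.43 in the stable knockdown, 8.96 in the luciferase control and 9.13 in the siRNA knockdown. PDE1C, a calcium-activated cyclic nucleotide phosphodiesterase, was higher at 2.65, and PDE4B and PDE4D, which degrade cyclic AMP, at 1.35 and 1.10. RGS7, a brake on G protein signalling, was higher at 2.32 and RGS4 and RGS2, of the same family, lower at -1.70 and -1.27. The other probe set of RGS7 at the level gave 0.40. The 3 probe sets of RGS4 lay between -1.70 and -1.65. AKAP12, a scaffold of protein kinases A and C, read 10.71 and 8.84 on the vector control and stable knockdown arrays and 6.87 and 6.98 on the luciferase control and siRNA knockdown arrays, and its other 3 probe sets gave larger differences, from -2.18 to -3.42.

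PTPN22, a phosphatase best known in T cells, read 8.38 in the vector control against 5.55 in the stable knockdown and 5.13 and 4.53 on the siRNA arrays. Its difference was -2.82, and its 2 other probe sets at the level gave -2.88 and -2.67. RNF128, a ubiquitin ligase, read 10.10 and 7.17 on the vector control and stable knockdown arrays and 6.22 and 5.92 on the luciferase control and siRNA knockdown arrays, the vector control being the one high array. MAP3K1 was higher at 1.51 and MAP3K5, a stress-activated kinase, lower at -1.48. SPRY1, a feedback inhibitor of receptor tyrosine kinases, was lower at -1.48.

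Interferon-stimulated genes, the antiviral effectors that interferon switches on, were 2-fold lower in 12 of 48 cases (2.08% of all genes) and higher in 1, and at 1.5-fold lower in 21 (7.11% of all genes). Their median was -0.41. The promoters of such genes are known for a core written GAAANNGAAA, and the stretches before 2 of the lower genes are shown to let a reader see it, in capitals where the letters or their reverse complement occur. They are from RefSeq on GRCh38.p14, on the plus strand, 5′ to 3′, at chr10:89392495-89392541 for IFIT1 and chr4:88456982-88457066 for HERC5. They lie upstream of the annotated starts, IFIT1's matches 93 to 116 bases and those of HERC5, which overlap in part, 64 to 125 bases before.
IFIT1: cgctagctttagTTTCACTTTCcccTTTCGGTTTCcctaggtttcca
HERC5: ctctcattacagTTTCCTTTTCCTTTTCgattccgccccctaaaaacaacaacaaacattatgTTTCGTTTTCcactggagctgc

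In the 250 bases before the start, searched on both strands, the core was found in 3.02% of 35116 RefSeq windows. Of the lower interferon genes with a window, 8 of 9 held it. So did 18 of the 28 under 2-fold and the 1 higher gene. These counts are per gene, over any of its windows, while the 3.02% is per window. Only 9 of the 12 lower genes had a window, under the 80% required for the CACCTG comparison given below. The counts thus describe the letters found and are no comparison of gene sets.

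IFIT1, which binds viral RNA, read 10.23 in the vector control, 8.60 in the stable knockdown, 10.48 in the luciferase control and 10.72 in the siRNA knockdown. OASL, of the oligoadenylate synthetase family, read 8.38 in the vector control, 6.24 in the stable knockdown, 9.25 in the luciferase control and 8.78 in the siRNA knockdown, and its second probe set differed by -2.44. SAMD9, a restriction factor of poxviruses, read 7.86 in the vector control, 6.28 in the stable knockdown, 8.97 in the luciferase control and 8.90 in the siRNA knockdown. The stable knockdown was the lowest of the 4 arrays for these 3 genes. The same held for all 12, with differences from -2.15 to -1.05 against the vector control and from -3.01 to -1.25 against the luciferase control, so all 12 are among the 85 genes lower than both controls (0.564% of all genes).

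Other members did not follow. BST2 (tetherin) was higher at 1.34, and MX1, IFI27 and XAF1 differed by 0.73, 0.71 and 0.56, though MX1 read 6.94 in the stable knockdown and 9.67 and 9.65 on the siRNA arrays. IFI44 and OAS3 rest on their brightest probe set, since the second gave -0.07 and -0.01. Against the luciferase control the class had a median of -1.70. Both shRNA arrays were below both siRNA arrays for each of the 12 except OAS2. CASP1, an inflammasome protease, was lower at -1.04, and its 4 other probe sets gave -1.47 to -1.94.

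A single list of 34 held genes of amino acid stress, driven by ATF4, and of the unfolded protein response in the endoplasmic reticulum. Of the 34, 6 were 2-fold higher (17.6%) and 3 lower (8.82%), beside 2.39% and 2.08% of all genes. The median was 0.11. ASNS, asparagine synthetase, read 7.65 in the vector control, 10.53 in the stable knockdown, 11.11 in the luciferase control and 10.63 in the siRNA knockdown. NUPR1, a stress-induced nuclear protein, read 4.78 in the vector control, 6.73 in the stable knockdown, 10.50 in the luciferase control and 10.10 in the siRNA knockdown, and CHAC1, which degrades glutathione, 5.75 in the vector control, 7.26 in the stable knockdown, 8.30 in the luciferase control and 8.07 in the siRNA knockdown. SLC7A5, ATF3 and the serine synthesis enzyme PSPH differed by 1.85, 1.41 and 1.30. The stable knockdown was above the vector control and, apart from SLC7A5, below both siRNA arrays. ATF4 itself differed by 0.84 and TRIB3 by 0.95. CTH, of cysteine synthesis and outside the list, differed by 2.37. Members of the list that differed little were MTHFD2 at -0.05, CEBPB at 0.12 and STC2 at -0.23.

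The lower members were chaperones and cofactors of the endoplasmic reticulum. DNAJC3 differed by -1.29 with all 4 probe sets lower, SDF2L1 by -1.10 and MANF by -1.003. HSPA5, the main chaperone there, differed by -0.78 and -1.10, HSP90B1 by -0.64 and PDIA4 by -0.65. Other members did not follow, with HERPUD1, SEL1L, CALR and EDEM1 between -0.06 and 0.09. ATF4 binds a composite element, and the core TGATGNAA is shown for 2 of the higher genes, from RefSeq on GRCh38.p14, 5′ to 3′, with the match or its reverse complement in capitals. The ASNS stretch, at chr7:97872457-97872488 on the minus strand, holds it 60 to 68 bases before the start, and the CHAC1 stretch, at chr15:40953250-40953281 on the plus strand, 201 to 209 bases before.
ASNS: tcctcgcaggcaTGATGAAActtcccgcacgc
CHAC1: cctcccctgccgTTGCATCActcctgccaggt

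That core, on either strand, was in 3.14% of the 35116 windows of 250 bases. Of the list's members with a window, 3 of 4 higher, 0 of 3 lower and 1 of 23 under 2-fold held it. These counts too are per gene, and only 4 of the 6 higher members had a window, also under 80%. ZEB2's own CACCTG was found in 17.5% of all windows. A comparison of that share between higher, lower and all genes was void, because 79.5% of measured genes, under the 80% required, had a window.

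**Figure D4:**
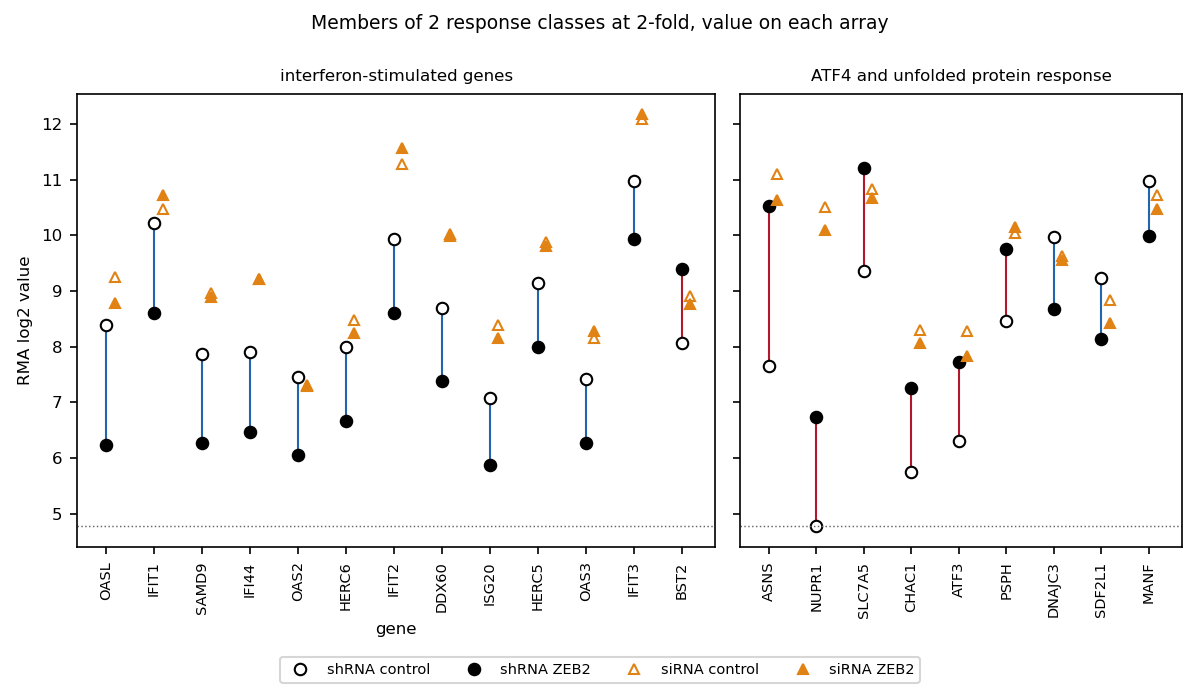
RMA log2 values on each array for the members at 2-fold of the interferon-stimulated class and of the ATF4 and unfolded protein response class. Circles are the shRNA arrays (open, vector control; filled, ZEB2 knockdown), joined by red where the knockdown is higher and blue where lower, triangles the siRNA arrays (open, luciferase control; filled, ZEB2 knockdown), and the dotted line is the filter level of 4.77. For the 12 lower interferon genes the stable knockdown is the lowest of the 4 arrays.

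Sterol synthesis genes lay mostly above the vector control and, by their median, below the luciferase control. Of 19 sterol synthesis genes 3 were 2-fold higher (15.8%) and 0 lower, beside 2.39% and 2.08% of all genes. In all 17 were above 0, with a median of 0.38 beside -0.02 for all genes. INSIG1, which holds the sterol sensor in the endoplasmic reticulum, read 9.85 in the vector control, 11.56 in the stable knockdown, 11.58 in the luciferase control and 11.07 in the siRNA knockdown, and LSS, lanosterol synthase, differed by 1.46. SCD, which makes monounsaturated fatty acids, was higher in all 4 probe sets, from 1.83 to 2.10. FASN, fatty acid synthase, was higher at 1.07 in one probe set and flat in the other. Against the luciferase control the sterol class had a median of -0.43, and in the siRNA pair -0.26. FABP5, a fatty acid carrier, was lower at -1.25.

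Of 39 genes of glycolysis and the hypoxia response, 5 were higher (12.8%), LOX and ADM among them, and 1 lower (2.56%), ANGPTL4. The shares of all genes were 2.39% and 2.08%. DDIT4, an inhibitor of mTORC1 signalling, read 8.40 in the vector control, 10.83 in the stable knockdown, 10.95 in the luciferase control and 10.34 in the siRNA knockdown. PDK1, which restrains pyruvate dehydrogenase, and the hypoxia-induced gene NDRG1 differed by 1.39 and 1.31, and VEGFA by 0.91. TXNIP, the inhibitor of thioredoxin and of glucose uptake, was higher in 3 probe sets, from 1.63 to 2.09, and by 1.56 against the luciferase control.

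Metabolic enzymes outside these classes gave further single members. NNMT, which methylates nicotinamide, was higher in its 3 probe sets, from 1.04 to 2.87. CDA, cytidine deaminase, read 7.07 in the vector control, 10.26 in the stable knockdown, 11.71 in the luciferase control and 11.76 in the siRNA knockdown, and ABAT, which degrades GABA, 4.13 in the vector control, 6.70 in the stable knockdown, 5.88 in the luciferase control and 5.83 in the siRNA knockdown. The aldo-keto reductases AKR1C3 and AKR1C2 were higher at 2.34 and 1.48, but their sequences are close. ALDH1A3, which makes retinoic acid, read 9.53 in the vector control against 7.23, 7.14 and 7.10 on the other arrays. CH25H, which makes 25-hydroxycholesterol, was lower at -2.58 and, against the luciferase control, at -3.34.

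No gene of DNA replication or mitosis, 45 measured in each, was at 2-fold within the shRNA pair, beside 4.47% of all genes. DNA replication had, of 45 genes, 1 higher and 6 lower at 1.5-fold, beside 7.55% and 7.11% of all genes. Of the 45, 9 were above 0, and the median was -0.29. Mitosis genes had a median of -0.07. Against the luciferase control the medians were 0.54 and 0.93, so the sign depends on the control. Among cyclins and their inhibitors, CCNG2 and CDKN1C were higher at 1.46 and 1.14 and CCNA1 and CCND2 lower at -1.41 and -1.73. In the siRNA pair CCND2 differed by -1.55 in that probe set alone. Its 3 others gave -0.49 to -1.11 in the shRNA pair. On the luciferase control and siRNA knockdown arrays they read under the level, at 4.43 and 4.64, 3.67 and 3.63, and 4.29 and 4.36. MDM2, the ubiquitin ligase of p53, differed by -1.81 in its brightest probe set, with its 5 others from -1.29 to 0.50. Respiratory chain genes had 1 of 88 (1.14%) 2-fold higher, beside 2.39% of all genes. At 1.5-fold 11 were higher against a background of 7.55%, with 0 lower. Proteasome genes had 0 of 33 at 1.5-fold, beside 7.55% higher and 7.11% lower of all genes.

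Enzymes that build glycans were higher in 2 of 111 cases (1.8%) and lower in 7 (6.31%), beside 2.39% and 2.08% of all genes. ST8SIA4, which makes polysialic acid, read 6.34 in the vector control and 3.99, 4.43 and 3.91 on the other arrays, a difference of -2.34, and its 3 other probe sets at the level gave -1.50 to -2.79. CHSY3, of chondroitin synthesis, was lower at -2.38, and HS3ST1 and UST, sulfotransferases of heparan and chondroitin chains, at -1.75 and -1.37, or -2.02 and -1.93 against the luciferase control. ST6GALNAC5, a ganglioside sialyltransferase, was higher at 2.29. ST3GAL6 was higher at 1.30, but its probe sets disagreed, from -0.69 to 1.58.

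Cancer-testis genes, normally silent outside the germ line, were higher in 8 of 42 cases (19%) and lower in 0, while their median was -0.01. The shares of all genes were 2.39% and 2.08%. MAGEC1 read 4.76 and 6.84 on the vector control and stable knockdown arrays and 7.54 and 7.41 on the luciferase control and siRNA knockdown arrays, and SSX1 was at the level in the stable knockdown alone, at 5.72 against 4.17, 4.32 and 4.26. MAGEA6 and MAGEA12 differed by 1.40 and 1.54. SPANX, MAGE and SSX genes have near-identical copies, so the members cannot be counted as separate readings. The imprinted genes MEST and PEG10 were higher at 2.05 and 1.94, to values close to those on the siRNA arrays.

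Other probe sets of the same gene give a check on the reading, though not on the cultures. Of the 674 genes at 2-fold, 302 had no other probe set at the filter level. Of the remaining 372, 197 had all others the same way at 1.5-fold or more, 76 had some, 95 had none either way and 4 had at least 1 opposite. Over all such probe sets, 429 of 673 were the same way (63.7%) and 4 opposite. The genes with an opposite one were ST3GAL6, LINC00662, DCP2 and DIPK2A.

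For 120 genes, 65 higher and 55 lower, every one of 2 or more probe sets was at 2-fold the same way, and for 40 of them there were 3 or more. Among the 19 lower were PTPN22, HLA-DPA1, LAMA2, LAMA4, SLIT2, AKAP12 and RGS4, already given, and ENPP1, an enzyme that makes pyrophosphate outside the cell, at -1.56 with others from -1.11 to -2.43. THBD, the thrombin receptor thrombomodulin, was at -1.25 and the anthrax toxin receptor ANTXR2 at -1.31. Among the 21 higher were CXCR4, CD24, LOX, NNMT, SCD and INSIG1, and MAOA, which degrades monoamines, at 1.21 with others at 1.25 and 1.29. HKDC1, of the hexokinase family, was at 1.77 with others from 1.10 to 1.58.

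**Figure D5:**
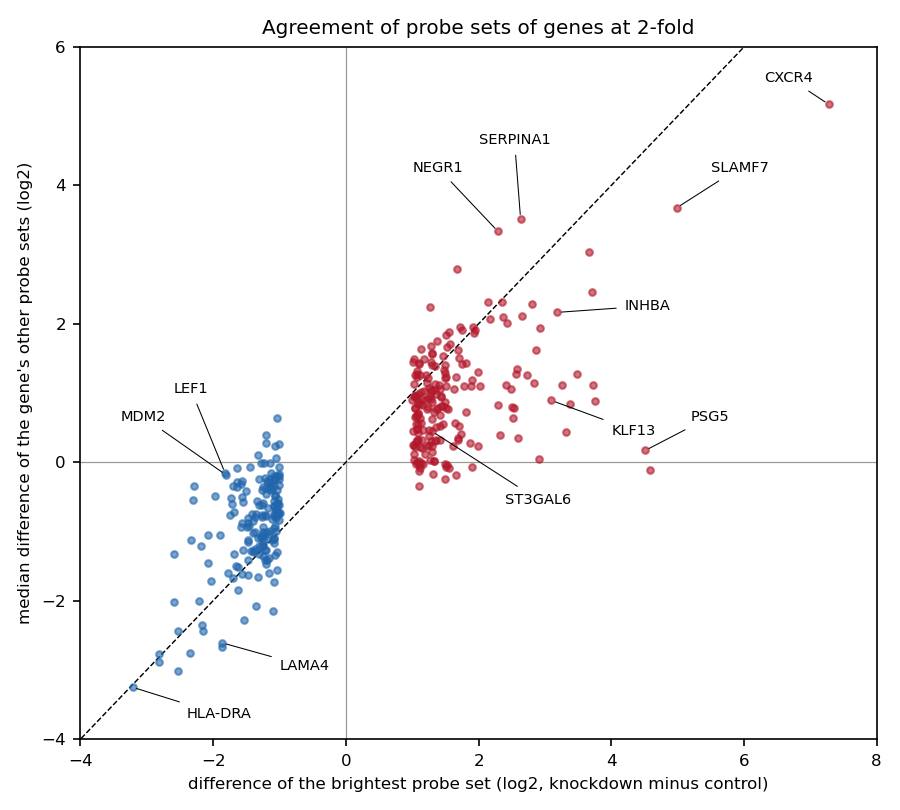
Difference of the brightest probe set (horizontal axis, log2, stable knockdown minus vector control) against the median difference of the gene's other probe sets at the filter level (vertical axis, log2) for the 372 genes at 2-fold that have one. Red points are higher and blue points lower genes, and the dashed line marks equal values. The points of KLF13 and PSG5 lie between the dashed line and 0, and those of NEGR1 and SERPINA1 beyond the dashed line.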

How the data were processed

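RNA of 4 MDA-MB-231 groups was measured on 1 Affymetrix U133 Plus 2 array each. The deposited values are log2 signals per probe set. Per the submitters' processing notes the authors used RMA from affy, whose versions are not given in the sources used here. Its background correction and quantile normalization make the arrays comparable and compress dim differences. From these values each gene's control was subtracted from its knockdown, and genes at 2-fold were counted, with no test.

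Of 54675 probe sets, 41097 had 1 gene symbol, 1801 several and 11777 none; 41043 of the 41097 matched RefSeq GRCh38.p14, which also gave the promoter windows. Probe sets with several symbols or none were not named. The brightest probe set stood for a gene when its highest value reached the 40th percentile of all values.

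Genes were named by a rule: up to 4 members each way per class (8 for regulators together), 10 each way whose 3 or more probe sets were all at 2-fold, 10 with the largest opposite probe set, 5 on each side of 2-fold and the 15 highest and lowest. Other genes named here were chosen after their values were seen. The members, classes and lists were chosen with earlier results of these data known. Alternatives covered the fold, the probe set, the level filter, the scaling and the control. The counting was tested on simulated data. Python 3.11.15, numpy 2.4.6, pandas 2.3.3, matplotlib 3.10.9, R 4.3.3 and limma 3.58.1 (cyclic loess) were used.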

Additional observations from a re-analysis of the deposited data

Results flagged for a closer look

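Of the 312 rule-named genes at 2-fold, 15 differed in opposite directions in the stable pair and the siRNA pair, each by more than 1.5-fold. Genes outside the rule were not searched for opposite differences, and the share over all genes was not counted, so no conclusion is drawn from the 15. Of all 674 genes at 2-fold, 37 (5.49%) differed the same way at 1.5-fold in the siRNA pair, 6 of the 361 higher and 31 of the 313 lower. The sign was the same for 332 of the 674 (49.3%). Each group is 1 array, and the difference between the pairs was not tested. For 13 of the 15 the stable knockdown was higher than its control and the siRNA knockdown lower than its own. The siRNA differences were -0.68 for CPA3, -0.68 for CREB5, -0.61 for DDIT4, -0.71 for HAS2, -0.71 for IL11, -0.66 for LINC00662 and -0.85 for MEF2C. They were -0.72 for MT1E, -0.90 for PAPPA, -0.69 for PSG5, -0.63 for SLC4A4, -0.78 for SLCO4C1 and -0.61 for TXNIP. For CEMIP and ZNF804A, lower in the stable knockdown by -1.26 and -1.40, the siRNA differences were 0.91 and 0.72.

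Probe sets without a gene symbol were not part of the comparison. Of the 5045 at the filter level, 85 were 2-fold higher and 58 lower in the stable knockdown (2.83%).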

How the results depend on the processing

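The counts of 361 higher and 313 lower genes moved beyond 1.5 times with the fold, to 1138 and 1073 at 1.5-fold and to 126 and 85 at 3-fold. With the mean of all probe sets of a gene, 202 genes were lower. With the siRNA control in place of the vector control, 1232 were lower, and without genes 2-fold apart between the controls 80 were higher and 148 lower; both settings were chosen after seeing the data. Under the other filters, probe set choices and scalings the counts lay within 1.5 times. Signs turned for F2R without cross-hybridising probe sets (-0.039), and for PAPPA (-0.026) and SH2D3A (-0.064) with the probe set brightest on the 2 shRNA arrays. With the siRNA control, the median changed sign in 37 of 85 classes. Among these it became -1.09 for the CEACAM and PSG class, 0.15 for connexins, 0.54 for DNA replication, 0.93 for mitosis, -0.43 for sterol synthesis, -0.60 for ATF4 and unfolded protein response, -0.25 for glycolysis and hypoxia and -1.78 for NF-kB response genes. The cause was not tested. Of the 298 named genes at 2-fold with a value there, 209 were still at 2-fold with probe set means. No paired analysis was possible because each group is 1 array. Dim probe sets near the filter level limit the sizes given.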

Other observations

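Long noncoding RNAs were less often 2-fold lower than protein-coding genes, and nearer to them on the higher side. Of 1126 measured long noncoding RNAs, 20 were higher (1.78%) and 6 lower (0.533%), beside 2.47% and 2.2% of protein-coding genes. Transcribed pseudogenes, 250 measured, had 2% higher and 2.4% lower. UCA1, a long noncoding RNA first described in bladder carcinoma, read 5.25 in the vector control, 8.55 in the stable knockdown, 13.46 in the luciferase control and 13.81 in the siRNA knockdown. LINC00960 read 4.89, 8.61, 8.92 and 8.77 on the same arrays. PGM5-AS1, antisense to PGM5, differed by 2.02 within the stable pair, and the array's probes for an antisense pair can overlap. MIR146A, the host transcript of a microRNA induced by NF-kB, differed by -1.17 from the vector control and by -2.44 from the luciferase control.

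Among genes outside the classes that were higher than both controls, NAP1L3, of the nucleosome assembly family, differed by 2.58 and 2.48 and LDOC1 by 2.96 and 1.17. NRK, a kinase of the placenta, differed by 3.48 and 1.58. Among those lower than both, VNN1, a pantetheinase on the cell surface, differed by -1.39 and -3.38, and QPCT, which forms pyroglutamate on peptides, by -1.94 and -2.33. GAD1, which makes GABA, differed by -1.57 and -1.56.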
